A study of Mus musculus with 18 samples.

Results

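The 43 genes described here are the transcription factors, effectors and biosynthetic genes of the ATF4 and CHOP branch of the integrated stress response, chosen by gene symbol from 24047 genes of a count table. All 43 were found, and DESeq2 tested each in every comparison. The second tool, edgeR, tested 42 in GF Ern2-/- against WT and in all comparisons among the WT groups, and 43 in the others. They comprise 8 regulators, 7 stress effectors, 11 genes of amino acid and one-carbon synthesis, 5 amino acid transporters and 12 genes of tRNA charging and export. RNA was sequenced from colon crypt epithelial cells of 18 mice on the C57BL/6 background, in 6 groups of 3. Mice were WT or labelled Ern2-/-, a germline deletion of the gene for IRE1β, an endoplasmic reticulum (ER) stress sensor of mucosal epithelia. Mice of each genotype label were conventionally raised (CONV), germ free (GF), or GF and then given cecal microbes and sampled 14 days later (COLONIZED). The paper names conventional WT mice as the donors for its colonized groups of both labels. It also reports that the stool microbes of CONV-Ern2-/- mice differed from those of CONV-WT mice. Comparisons of CONV-Ern2-/- with CONV-WT or COLONIZED mice can thus also differ in the microbes carried. GF mice lived in sterile isolators, and COLONIZED mice left them for sterile cages, so microbes and housing changed together. Each library came from 1 mouse, and the sources used here give no age for these animals.

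Total counts per library were 19255177 to 23154481 in GF-WT, 18824582 to 20430725 in COLONIZED-WT, 8198204 to 15877968 in CONV-WT, 13783712 to 20384814 in GF-Ern2-/-, 14046576 to 20231830 in COLONIZED-Ern2-/- and 5865619 to 15419844 in CONV-Ern2-/-. The epithelial genes Epcam, Krt8, Vil1 and Cdx2 exceeded 1 CPM (a gene's count scaled to a common library total) in all 18 libraries. Of 25 markers of immune, mesenchymal, endothelial, glial and pancreatic acinar cells, 12 were at or under 1 CPM in every library, among them Sox10 (at 0 in 17 libraries), Cdh5 (15), Pdgfra (10) and Cpa1 (18). Ptprc, the pan-leukocyte gene, was at 2.65 to 17.4 CPM and Cela1 of the acinar list at 48.8 to 460 CPM, both over 1 in all 18 libraries, and Pecam1 reached 5.9 CPM and was over 1 in 11. The mesenchymal markers other than Pdgfra exceeded 1 CPM in 1 to 3 libraries each, and all 6 summed to at most 2.61 CPM in the GF and COLONIZED libraries and reached 11.1 in CONV-WT and 9.72 in CONV-Ern2-/-. Ern2 itself did not separate the genotype labels in GF or COLONIZED mice, and in CONV mice the groups did not overlap (log2 fold change -1.02 ± 0.29, adjusted p = 0.0128). Its normalized count was 2877, 386.1 and 3336 in GF-Ern2-/- replicates 1 to 3, 2567, 1325 and 1885 in COLONIZED-Ern2-/-, and 998.3, 1622 and 1487 in CONV-Ern2-/-, against 1909 to 3100 in the 9 WT libraries. Thus 3 libraries labelled Ern2-/- lay in or above the WT range, and groups are named below by their labels; which exons the deletion removes was not used here. CONV-WT replicate 3 stood apart, with the lowest median correlation with other libraries (0.88), a summed goblet-marker level of 2640 CPM beside 20900 and 23900 in its group, and 8198204 counts. A pattern of Y-linked transcripts was present in 0 of 3 GF-WT libraries, 2 COLONIZED-WT, 1 CONV-WT, 2 GF-Ern2-/-, 2 COLONIZED-Ern2-/- and 3 CONV-Ern2-/-.

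In the integrated stress response, kinases that sense ER stress, amino acid shortage, heme shortage or double-stranded RNA phosphorylate the initiation factor eIF2α. General translation falls while translation of ATF4 mRNA rises, so that ATF4 protein can change without a change in its mRNA. ATF4, with partners such as C/EBPβ and C/EBPγ, activates genes that make, import and load amino acids, and with CHOP (encoded by Ddit3) it activates stress effectors. ATF4 dimers with C/EBP proteins bind composite elements of the form TGATGNAA near the start of many of these genes.

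The promoter sequences are shown because the group is defined by a common regulator, and the element could be looked for in the same windows across the genome. Windows from 250 bases before to 50 after the transcription start (RefSeq, GRCm38.p6) were available for 35 of the 43 genes. The letters TGATGNAA occurred on either strand in 14 of these 35 (40.0%), beside 4.51% of 27025 genes with a window and 3.0% of those with a count in these libraries. The stricter TGATGCAA, which is contained in the first motif, occurred in 10 (28.6%) beside 1.03%. The 14 genes were Atf3, Nupr1, Trib3, Chac1, Vldlr, Asns, Pycr1, Pck2, Slc7a11, Aars, Gars, Iars, Tars and Yars. A match describes the letters and is not evidence of binding. Stretches outside annotated exons, next to the RefSeq start of 4 of these genes, and 30 bases for Asns, follow (in GENCODE that of Atf3 lies in an intron and that of Asns in the first exon of a longer transcript), written 5′ to 3′ on the gene's strand with the match on either strand in capitals. They cover a stress effector, a regulator, a cystine transporter with 2 matches, and enzymes of proline and asparagine synthesis.
Chac1, chr2:119351005-119351100, plus strand: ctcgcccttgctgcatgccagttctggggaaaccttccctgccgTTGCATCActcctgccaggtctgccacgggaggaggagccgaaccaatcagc
Atf3, chr1:191183392-191183487, minus strand: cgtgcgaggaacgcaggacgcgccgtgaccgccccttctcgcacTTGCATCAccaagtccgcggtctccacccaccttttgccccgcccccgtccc
Slc7a11, chr3:50443615-50443723, minus strand: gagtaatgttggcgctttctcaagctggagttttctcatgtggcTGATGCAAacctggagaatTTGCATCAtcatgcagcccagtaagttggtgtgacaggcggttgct
Pycr1, chr11:120643800-120643895, minus strand: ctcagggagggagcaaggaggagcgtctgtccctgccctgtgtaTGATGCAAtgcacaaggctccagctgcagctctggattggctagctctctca
Asns, chr6:7693214-7693243, minus strand: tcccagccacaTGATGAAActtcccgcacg

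COLONIZED mice carried more transcript of most amino acid and one-carbon synthesis genes than GF mice under both genotype labels, as did CONV-WT mice. By edgeR only Aldh1l2 was called in COLONIZED-Ern2-/- mice, and no gene in CONV-WT mice. Without the 3 libraries with Ern2 in or above the WT range, the 7 genes called higher in COLONIZED-Ern2-/- were at 0.62 (Asns) to 3.58 (Aldh1l2) on the log2 scale. That fit held 1 GF-Ern2-/- library, so it cannot show whether the rise holds without the 3 libraries. In CONV-Ern2-/- mice 9 of these 11 genes had positive values, with 1 call higher (Aldh1l2) and 1 lower (Gpt2), and the interaction of label with CONV and GF state called none of the 11 by DESeq2 or edgeR. In both WT comparisons Aldh1l2 and Mthfd2 of mitochondrial folate metabolism, Phgdh and Psat1 of serine synthesis, Aldh18a1 and Pycr1 of proline synthesis, Asns and the synthetases Cars, Nars and Tars rose. Of the 8 regulators 1 was called in CONV-WT (7 positive, median log2 fold change 0.55), 3 in COLONIZED-WT (3 positive, median -0.20), none in CONV-Ern2-/- (8 positive, median 0.83) and 1 in COLONIZED-Ern2-/- (6 positive, median 0.42), each against GF. Of all genes 10.7%, 17.9%, 4.36% and 7.22% were called in these comparisons, and 1 call of 8 says little about the role. The 43 genes took 0.248 to 0.264% of counts in GF-WT, 0.323 to 0.377% in COLONIZED-WT and 0.312 to 0.373% in CONV-WT. The share was 0.223 to 0.270% in GF-Ern2-/-, 0.337 to 0.383% in COLONIZED-Ern2-/- and 0.262 to 0.295% in CONV-Ern2-/-. These are bulk libraries, in which fewer cells of a type and less RNA per cell cannot be told apart.

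A gene was called where the DESeq2 adjusted p, over all genes, was under 0.01. In COLONIZED-WT against GF-WT mice 24 of 43 genes were called, 21 higher and 3 lower, beside 17.9% of all 13893 genes tested (9.13% higher and 8.75% lower), and the median log2 fold change was 0.44 over the 43 and -0.01 over all genes. In CONV-WT against GF-WT mice 14 were called, 13 higher and 1 lower, beside 10.7% of all genes (5.56% and 5.14%), with medians of 0.56 and 0.00. In COLONIZED-Ern2-/- against GF-Ern2-/- mice 15 were called, 14 higher and 1 lower, beside 7.22% (3.62% and 3.6%), with medians of 0.47 and -0.02. In CONV-Ern2-/- against GF-Ern2-/- mice 5 were called, 4 higher and 1 lower, beside 4.36% (1.58% and 2.78%), with medians of 0.41 and -0.01. The comparisons within a genotype label share their GF libraries. Between the labels no library is shared: 12 genes were called with colonization in both, which is 50% of the WT calls and 80% of those in the libraries labelled Ern2-/-, and 3 genes (Aldh1l2, Gpt2 and Cars) were called in both CONV comparisons, 21.4% and 60% of the calls. Each of these members had the same sign under both labels. Over all genes, 768 were called with colonization in both, 30.9% and 76.7% of the calls, and 257 in both CONV comparisons, 17% and 44.2%, so the members' shares of the calls in the libraries labelled Ern2-/- are read against these.

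Several features of the libraries moved with microbial state. The summed level of 5 proliferation markers was 329 to 595 CPM in GF-WT, 883 to 1030 in COLONIZED-WT and 556 to 1090 in CONV-WT. The 5 goblet markers summed to 7210 to 9680 CPM in GF-WT, 13600 to 16500 in COLONIZED-WT and 2640 to 23900 in CONV-WT. COLONIZED-WT lay above GF-WT without overlap for both lists. CONV-WT overlapped GF-WT through replicate 3 alone (556 CPM for proliferation, 2640 for goblet markers), the other two being at 1010 and 1090, and at 20900 and 23900. In the libraries labelled Ern2-/- the proliferation markers summed to 337 to 592 CPM in GF, 1060 to 1250 in COLONIZED and 480 to 764 in CONV, with 4 of 5 called higher in COLONIZED than in GF, and the goblet markers to 3390 to 7100, 6180 to 12200 and 2020 to 2890. The 6 mesenchymal markers all had positive values in CONV against GF under both labels (median log2 fold changes 3.79 in WT and 1.83, with 1 called in each). Cela1 of the acinar list was lower than in GF in all 4 comparisons (-1.55 ± 0.47 in CONV-WT, adjusted p = 0.000542 in COLONIZED-WT, -2.40 ± 0.31 in CONV-Ern2-/- and -1.24 ± 0.34 in COLONIZED-Ern2-/-). In COLONIZED-Ern2-/- against GF-Ern2-/- the endothelial marker Pecam1 (-2.24 ± 0.53) and 2 of 7 immediate early genes were called lower. The part of any of these lists in the results was not tested. With the Y-linked pattern as a covariate, 3 genes (Phgdh, Mthfd2 and Aldh18a1) were called in COLONIZED-WT against GF-WT mice beside 1.88% of all genes. There were 7 in CONV-WT against GF-WT beside 6.7%, and all 15 calls in COLONIZED-Ern2-/- against GF-Ern2-/- were kept beside 6.93%. No GF-WT library had the pattern, so the COLONIZED-WT effect then rests on replicate 2, the only library of its group without it. Both groups labelled Ern2-/- had it in 2 libraries, so the counts cannot be compared between labels. The more conservative edgeR quasi-likelihood test called 11, 0, 1 and 0 of the genes in the 4 comparisons in the order given above, beside 4.94%, 0.175%, 0.216% and 0.0325% of all genes.

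**Figure D1:**
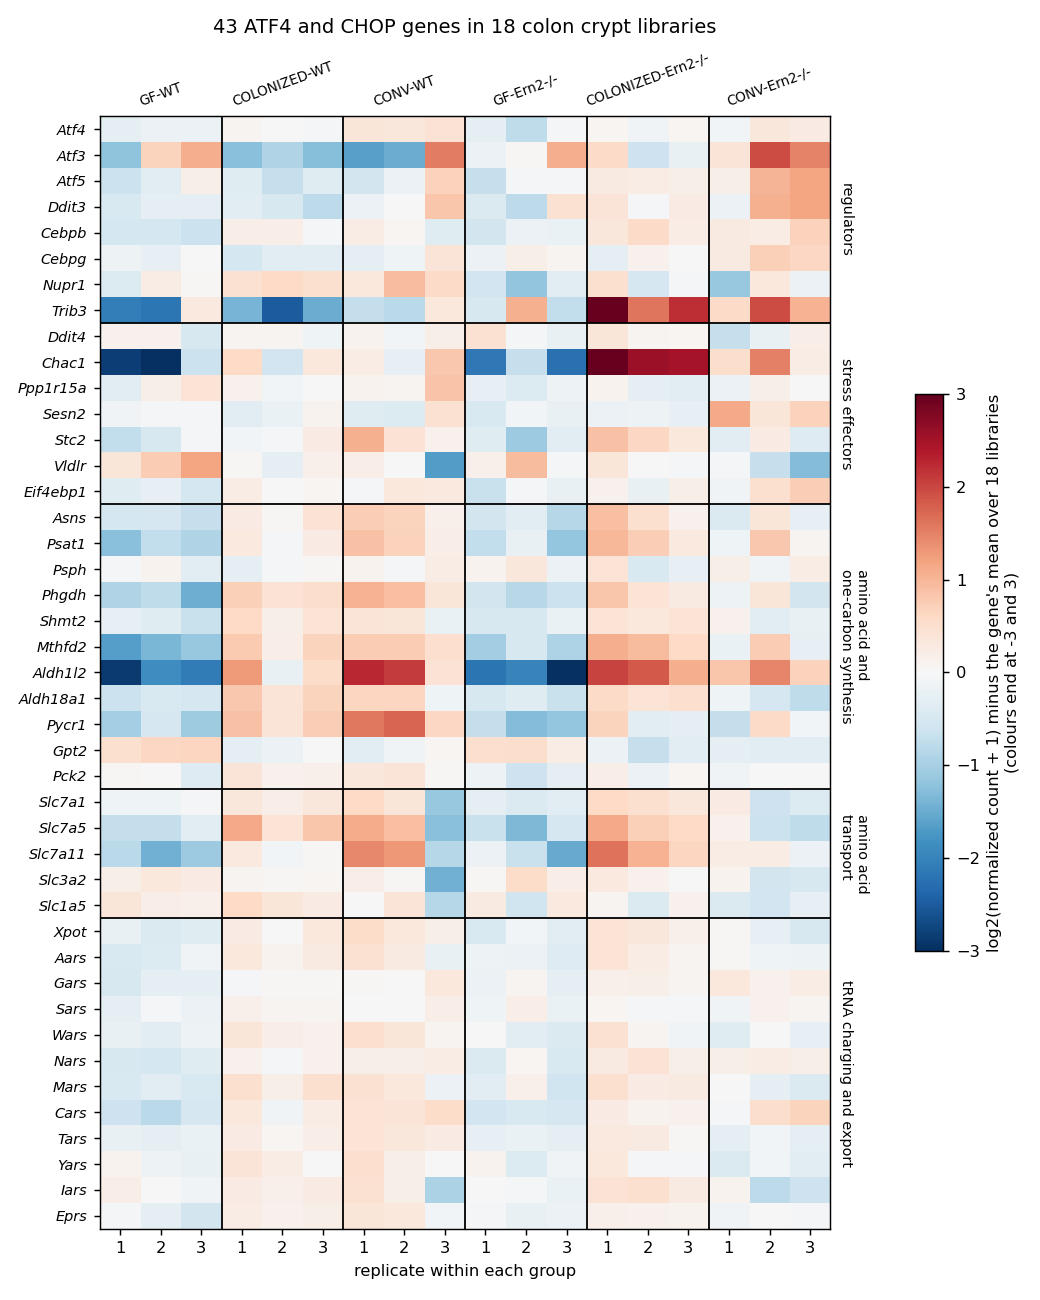
Log2(normalized count + 1) of the 43 genes (rows, by role) in each of 18 libraries (columns, by group), minus the gene's mean over all libraries; colours end at -3 and 3. Genes of amino acid and one-carbon synthesis other than Psph, Gpt2 and Pck2 are below their mean in all 6 GF libraries, and Chac1 and Trib3 are highest in COLONIZED-Ern2-/-.

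Among the regulators, Atf4 mRNA was higher in CONV-WT than in GF-WT mice, and no other regulator was called in that comparison with all libraries. Without CONV-WT replicate 3, Atf4 (0.57 ± 0.12), Atf3 (-2.05 ± 0.57, adjusted p = 0.00208; -0.21 with it) and Cebpb (0.71 ± 0.20, adjusted p = 0.00249) were called. Values are normalized counts, given for replicates 1, 2 and 3 of a group in that order. Atf4 (chr15:80255184-80257541, GRCm38), the central transcription factor, had 2224, 2427 and 2405 in GF-WT, 3504, 3474 and 3691 in CONV-WT, 2907, 2729 and 2630 in COLONIZED-WT, 2245, 1619 and 2663 in GF-Ern2-/-, 2835, 2550 and 2847 in COLONIZED-Ern2-/-, and 2593, 3477 and 3245 in CONV-Ern2-/-. The 3 WT groups did not overlap, in the order GF, COLONIZED, CONV, whereas the groups labelled Ern2-/- did. The log2 fold change was 0.59 ± 0.12 (SE; adjusted p = 4.11e-05) for CONV-WT over GF-WT, 0.24 ± 0.12 (adjusted p = 0.109) for COLONIZED-WT over GF-WT and 0.36 ± 0.11 (adjusted p = 0.097) for CONV-WT over COLONIZED-WT. In the libraries labelled Ern2-/- it was 0.50 ± 0.26 for CONV over GF (adjusted p = 0.269) and 0.33 ± 0.22 for COLONIZED over GF (adjusted p = 0.368). The call in CONV-WT was made in 1 of the 6 fits that each left out 1 library and reached an adjusted p of 0.0584 without GF-WT replicate 1.

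Ddit3, which encodes the pro-apoptotic factor CHOP, was called in none of the 9 comparisons between groups. It had 148.3, 164.6 and 168 in GF-WT, 180.1, 205.4 and 361.6 in CONV-WT, 161.9, 145.4 and 116.7 in COLONIZED-WT, 148.4, 116.3 and 279.3 in GF-Ern2-/-, 266.3, 197.2 and 241.7 in COLONIZED-Ern2-/-, and 179.6, 422.1 and 460.8 in CONV-Ern2-/-. The highest values were in the 2 shallowest CONV-Ern2-/- libraries and in CONV-WT replicate 3, the shallowest WT library. Over GF the log2 fold changes were 0.62 ± 0.33 in CONV-WT (adjusted p = 0.189), -0.17 ± 0.21 in COLONIZED-WT (adjusted p = 0.571), 0.95 ± 0.44 in CONV-Ern2-/- (adjusted p = 0.196) and 0.37 ± 0.35 in COLONIZED-Ern2-/- (adjusted p = 0.549). With the library total as a covariate the CONV values became -0.16 in WT and -0.20 in the libraries labelled Ern2-/-. The 3′ end of Ddit3 overlaps Mars on the opposite strand of chromosome 10, and the strand setting of the counting is not given in the sources used here.

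Trib3 (chr2:152337422-152344032), a pseudokinase that binds ATF4 and is itself one of its targets, was scarce in WT mice and highest in COLONIZED-Ern2-/- mice. It had 2.31, 2.10 and 16.0 in GF-WT, 7.54, 6.91 and 16.4 in CONV-WT, 4.28, 1.47 and 3.97 in COLONIZED-WT, 8.95, 28.1 and 7.30 in GF-Ern2-/-, 138.8, 41.4 and 63.2 in COLONIZED-Ern2-/-, and 19.8, 53.3 and 27.6 in CONV-Ern2-/-. No COLONIZED-Ern2-/- library overlapped any of the 9 WT libraries. Over GF its log2 fold change was 2.46 ± 0.63 in COLONIZED-Ern2-/- (adjusted p = 0.00194) and 1.17 ± 0.72 in CONV-Ern2-/- (adjusted p = 0.378), and in WT it was -1.07 ± 1.07 with colonization (adjusted p = 0.486) and 0.55 ± 0.99 in CONV (adjusted p = 0.762). The call rested on COLONIZED-Ern2-/- replicate 1, in whose absence the adjusted p was 0.103. Without the 3 libraries with Ern2 in or above the WT range the log2 fold change was 0.88, a fit whose GF-Ern2-/- arm is replicate 2 alone (28.1, the highest of its group), assumed to vary like the other groups.

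Atf3, Cebpb and Nupr1 were called with colonization in WT mice. Atf3, an immediate-response partner of this family, fell by 1.60 ± 0.44 on the log2 scale (adjusted p = 0.00229), but GF-WT ranged from 80.7 to 396.4 and COLONIZED-WT from 76.2 to 99.9, so the groups overlapped, and the adjusted p was 0.0673 without GF-WT replicate 3. Of 7 immediate early genes 4 were called lower in the same comparison, with sums of 367 to 453 CPM in GF-WT and 304 to 379 in COLONIZED-WT, and their part in the Atf3 result was not tested. Cebpb, a dimer partner of ATF4, rose by 0.71 ± 0.17 (adjusted p = 0.000354), from 154.8 to 168.1 in GF-WT to 237.3 to 279.8 in COLONIZED-WT. Nupr1, a small nuclear stress protein, rose by 0.56 ± 0.18 (adjusted p = 0.00979; 0.0685 without COLONIZED-WT replicate 2). In CONV-Ern2-/- against COLONIZED-Ern2-/- mice Atf3 was 1.41 ± 0.41 higher (adjusted p = 0.00718; 0.0968 without CONV-Ern2-/- replicate 2), again with overlapping groups. Cebpg was called in none of the 9 comparisons.

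**Figure D2:**
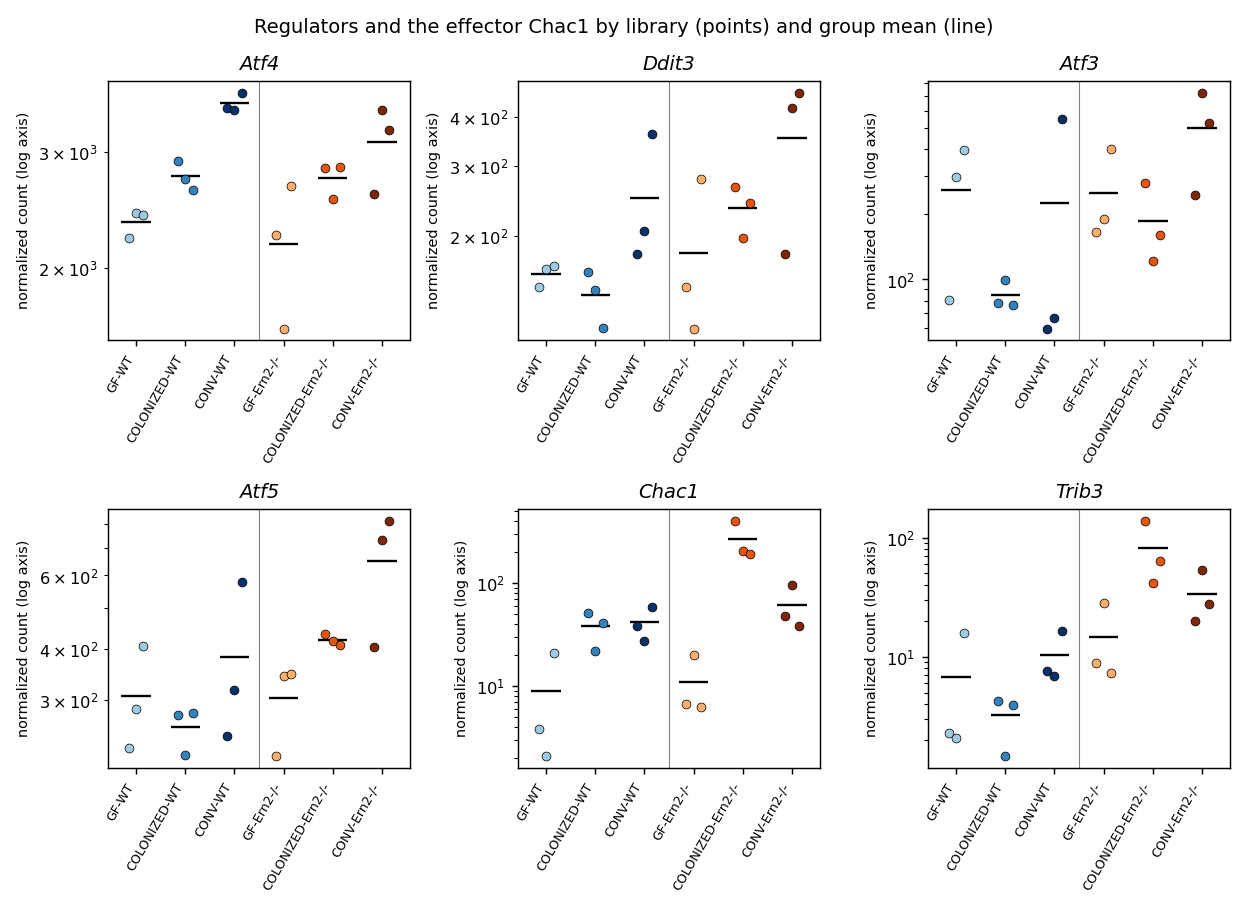
Normalized counts (log axis) of 5 regulators and the effector Chac1 in each library (points, n = 3 per group) with the group mean (line). The 3 WT groups are separate for Atf4, and every COLONIZED-Ern2-/- library is above every WT library for Chac1 and Trib3.

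Of the stress effectors, Chac1 had the widest range. Chac1 (chr2:119351229-119354381), an enzyme that breaks down glutathione, had 3.84, 2.10 and 20.8 in GF-WT, 38.7, 27.6 and 58.4 in CONV-WT, 50.6, 22.0 and 41.3 in COLONIZED-WT, 6.71, 20.1 and 6.25 in GF-Ern2-/-, 401.6, 205.3 and 191.6 in COLONIZED-Ern2-/-, and 48.0, 95.5 and 38.6 in CONV-Ern2-/-. Every library with microbes was above every GF library, and the 3 COLONIZED-Ern2-/- libraries were above all others. The log2 fold change over GF was 4.61 ± 0.49 in COLONIZED-Ern2-/- (24.4-fold, adjusted p = 8.62e-18) and 2.47 ± 0.64 in CONV-Ern2-/- (adjusted p = 0.00336; 0.12 without CONV-Ern2-/- replicate 2). In WT mice it was 2.09 ± 0.72 with colonization (adjusted p = 0.0177) and 2.20 ± 0.84 in CONV (adjusted p = 0.0473), both short of the threshold. Against COLONIZED-Ern2-/-, CONV-Ern2-/- was lower at a log2 fold change of -2.14 ± 0.41 (adjusted p = 1.2e-05), and this call was made in all 6 fits that each left out 1 library. Without the 3 libraries with Ern2 in or above the WT range, the COLONIZED-Ern2-/- value over GF-Ern2-/- was 3.29 ± 0.56, a fit with 1 GF-Ern2-/- library left.

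The other effectors changed in fewer comparisons. Sesn2, an inhibitor of mTORC1, had 715.3, 422.1 and 529.8 in CONV-Ern2-/-, above the 237.9 to 310.8 of GF-Ern2-/- and the 273.8 to 294.4 of COLONIZED-Ern2-/-, with log2 differences of 1.01 ± 0.28 (adjusted p = 0.00892; 0.119 without GF-Ern2-/- replicate 1) and 0.97 ± 0.24 (adjusted p = 0.00121; 0.0229 without COLONIZED-Ern2-/- replicate 3). Stc2, a secreted glycoprotein, rose by 1.17 ± 0.29 in COLONIZED-Ern2-/- over GF-Ern2-/- (adjusted p = 0.00127; 0.0376 without COLONIZED-Ern2-/- replicate 1). Vldlr, a lipoprotein receptor, fell by 0.84 ± 0.24 with colonization in WT (adjusted p = 0.00315; 0.0432 without COLONIZED-WT replicate 2). Ddit4, Ppp1r15a, the phosphatase subunit that ends the response, and Eif4ebp1 were called in none of the 9 comparisons.

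The 11 genes of amino acid and one-carbon synthesis held the most calls of any role against GF in CONV-WT (8, of which 7 higher), COLONIZED-WT (9, 8 higher) and COLONIZED-Ern2-/- (8, 7 higher), and 2 in CONV-Ern2-/- (1 higher), where the 7 stress effectors also held 2. The median log2 fold changes of the role were 1.11, 1.13, 1.09 and 0.49. The largest log2 fold change of the role in each of the 4 was that of Aldh1l2 (chr10:83487450-83534140), a mitochondrial enzyme that oxidizes formyl-tetrahydrofolate. It had 6.15, 13.3 and 11.1 in GF-WT, 249.0, 221.2 and 69.4 in CONV-WT, 124.8, 43.3 and 74.6 in COLONIZED-WT, 10.4, 12.0 and 4.17 in GF-Ern2-/-, 212.2, 183.7 and 109.3 in COLONIZED-Ern2-/-, and 91.9, 142.2 and 82.8 in CONV-Ern2-/-. All 12 libraries with microbes were above all 6 GF libraries. The log2 fold change over GF was 4.13 ± 0.57 in CONV-WT (17.5-fold, adjusted p = 8.94e-11), 2.99 ± 0.48 in COLONIZED-WT (7.96-fold, adjusted p = 3.5e-08), 3.55 ± 0.51 in CONV-Ern2-/- (11.7-fold, adjusted p = 1.32e-09) and 4.23 ± 0.46 in COLONIZED-Ern2-/- (18.7-fold, adjusted p = 2.5e-17). Aldh1l2 was called in each of these 4 comparisons in every fit that left out 1 library.

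Mthfd2, the preceding enzyme of mitochondrial folate metabolism, had 60.7, 73.6 and 86.1 in GF-WT, 327.2, 324.9 and 272.1 in CONV-WT, 328.7, 219.6 and 303.2 in COLONIZED-WT, 92.5, 136.4 and 101.1 in GF-Ern2-/-, 409.4, 368.3 and 287.9 in COLONIZED-Ern2-/-, and 166.0, 326.6 and 160.0 in CONV-Ern2-/-. Again each group with microbes lay above its GF group without overlap. It rose by 2.06 ± 0.23 in CONV-WT (adjusted p = 2.22e-16), 1.96 ± 0.24 in COLONIZED-WT (adjusted p = 6.34e-14) and 1.69 ± 0.27 in COLONIZED-Ern2-/- (adjusted p = 3.24e-08), each in all 6 fits that left out 1 library. Without the 3 libraries with Ern2 in or above the WT range the last value was 1.25 ± 0.40, a fit with 1 GF-Ern2-/- library left. Shmt2, which feeds one-carbon units from serine into that pathway, rose with colonization in WT by 0.83 ± 0.18 (adjusted p = 5.88e-05) and in the libraries labelled Ern2-/- by 0.75 ± 0.18 (adjusted p = 0.00102; 0.0223 without COLONIZED-Ern2-/- replicate 3).

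Phgdh, the first enzyme of serine synthesis, had 73.8, 81.3 and 49.3 in GF-WT, 283.8, 258.8 and 179.0 in CONV-WT, 226.8, 188.0 and 199.2 in COLONIZED-WT, 94.7, 77.2 and 88.6 in GF-Ern2-/-, 244.9, 182.8 and 167.5 in COLONIZED-Ern2-/-, and 124.3, 177.7 and 93.8 in CONV-Ern2-/-. Psat1, the second, had 83.7, 120.5 and 108.3 in GF-WT, 369.7, 324.9 and 233.7 in CONV-WT, 246.7, 193.2 and 238.9 in COLONIZED-WT, 120.8, 173.5 and 89.6 in GF-Ern2-/-, 403.0, 336.8 and 248.7 in COLONIZED-Ern2-/-, and 185.9, 353.3 and 215.2 in CONV-Ern2-/-. Both genes were higher in every WT library with microbes than in every GF library, and for Phgdh the CONV-Ern2-/- libraries reached down to the GF-Ern2-/- range. Phgdh rose by 1.82 ± 0.31 in CONV-WT (adjusted p = 5.66e-07), 1.60 ± 0.24 in COLONIZED-WT (adjusted p = 2.26e-09) and 1.19 ± 0.27 in COLONIZED-Ern2-/- (adjusted p = 0.000305; 0.0112 without replicate 1 of that group). Psat1 rose by 1.57 ± 0.28, 1.13 ± 0.22 and 1.36 ± 0.32 in the same comparisons (adjusted p = 1.35e-06, 6.73e-06 and 0.000568; the last 0.0244 without COLONIZED-Ern2-/- replicate 1). Psph, the third enzyme of the pathway, was called in none of the 9 comparisons.

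Asns, asparagine synthetase, had 484.0, 486.2 and 426.9 in GF-WT, 1156, 1104 and 776.1 in CONV-WT, 817.9, 713.2 and 943.0 in COLONIZED-WT, 476.5, 552.5 and 383.6 in GF-Ern2-/-, 1294, 965.2 and 762.3 in COLONIZED-Ern2-/-, and 518.0, 895.4 and 585.0 in CONV-Ern2-/-. Only CONV-Ern2-/- overlapped its GF group. Asns rose by 1.11 ± 0.22 in CONV-WT (adjusted p = 2.17e-05), 0.83 ± 0.16 in COLONIZED-WT (adjusted p = 3.77e-06) and 1.09 ± 0.26 in COLONIZED-Ern2-/- (adjusted p = 0.000891; 0.02 without its replicate 1), and its value in CONV-Ern2-/- was 0.49 ± 0.29 (adjusted p = 0.356).

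Aldh18a1, which starts proline synthesis from glutamate, had 772.8, 883.4 and 853.2 in GF-WT, 1911, 1912 and 1110 in CONV-WT, 2125, 1585 and 1935 in COLONIZED-WT, 876.2, 951.6 and 759.8 in GF-Ern2-/-, 1822, 1606 and 1713 in COLONIZED-Ern2-/-, and 1113, 864.3 and 720.2 in CONV-Ern2-/-. The colonized groups were apart from GF, and CONV-Ern2-/- was not. It rose by 1.18 ± 0.16 in COLONIZED-WT (adjusted p = 6.37e-12), 0.99 ± 0.18 in COLONIZED-Ern2-/- (adjusted p = 2.09e-06) and 0.97 ± 0.27 in CONV-WT (adjusted p = 0.0041; 0.0806 without CONV-WT replicate 2). It was lower in CONV-Ern2-/- than in COLONIZED-Ern2-/-, at -0.92 ± 0.21 (adjusted p = 0.000293; 0.0151 without COLONIZED-Ern2-/- replicate 1). Pycr1, which completes the pathway, rose by 2.26 ± 0.38 in CONV-WT (adjusted p = 3.58e-07) and 1.55 ± 0.28 in COLONIZED-WT (adjusted p = 7.96e-07), from 36.8 to 54.6 in GF-WT.

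Gpt2, the mitochondrial alanine aminotransferase, moved the other way. It had 1066, 1175 and 1195 in GF-WT, 613.0, 709.2 and 796.2 in CONV-WT, 633.9, 684.6 and 757.3 in COLONIZED-WT, 1090, 1114 and 898.4 in GF-Ern2-/-, 682.8, 477.2 and 619.8 in COLONIZED-Ern2-/-, and 629.7, 606.5 and 609.8 in CONV-Ern2-/-. All 12 libraries with microbes were below all 6 GF libraries. It fell by 0.71 ± 0.17 in CONV-WT (adjusted p = 0.000813; 0.0523 without GF-WT replicate 2), 0.72 ± 0.14 in COLONIZED-WT (adjusted p = 3.69e-06), 0.75 ± 0.21 in CONV-Ern2-/- (adjusted p = 0.00728; 0.104 without GF-Ern2-/- replicate 1) and 0.81 ± 0.22 in COLONIZED-Ern2-/- (adjusted p = 0.00349; 0.0328 without GF-Ern2-/- replicate 1). Pck2, the mitochondrial PEP carboxykinase, was called in none of the 9 comparisons.

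Of the 5 transporters 3 were called with colonization under each label. Slc7a5, the light chain of the LAT1 transporter of large neutral amino acids, had 164.4, 164.6 and 211.7 in GF-WT, 580.0, 504.7 and 111.4 in CONV-WT, 591.8, 355.5 and 477.9 in COLONIZED-WT, 169.3, 105.3 and 189.7 in GF-Ern2-/-, 593.8, 445.7 and 407.2 in COLONIZED-Ern2-/-, and 292.4, 171.1 and 157.3 in CONV-Ern2-/-. It rose by 1.41 ± 0.23 in COLONIZED-WT (adjusted p = 4.34e-08) and 1.64 ± 0.29 in COLONIZED-Ern2-/- (adjusted p = 1.03e-06). CONV-WT replicate 3 was below every GF-WT library while its 2 companions were above, and without that library Slc7a5 in CONV-WT was 1.59 ± 0.21 above GF-WT (adjusted p = 1.15e-11). CONV-Ern2-/- was lower than COLONIZED-Ern2-/-, at -1.20 ± 0.29 (adjusted p = 0.00119; 0.0418 without COLONIZED-Ern2-/- replicate 1).

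Slc7a11, the cystine importer that supplies glutathione synthesis, had 24.6, 15.4 and 20.1 in GF-WT, 119.8, 108.6 and 23.7 in CONV-WT, 53.5, 41.1 and 44.5 in COLONIZED-WT, 38.8, 27.1 and 14.6 in GF-Ern2-/-, 138.1, 90.9 and 69.2 in COLONIZED-Ern2-/-, and 51.2, 51.1 and 38.6 in CONV-Ern2-/-. CONV-WT replicate 3 again lay in the GF-WT range. Slc7a11 rose by 1.22 ± 0.36 in COLONIZED-WT (adjusted p = 0.0047; 0.0546 without COLONIZED-WT replicate 1), 1.88 ± 0.45 in COLONIZED-Ern2-/- (adjusted p = 0.000802; 0.0418 without its replicate 1) and 2.07 ± 0.61 in CONV-WT (adjusted p = 0.00668; 0.0997 without CONV-WT replicate 2). Slc7a1, a carrier of cationic amino acids, rose with colonization by 0.39 ± 0.12 in WT (adjusted p = 0.00692; 0.04 without COLONIZED-WT replicate 1) and by 0.83 ± 0.17 in the libraries labelled Ern2-/- (adjusted p = 3.24e-05). Slc3a2, the heavy chain that pairs with Slc7a5 and Slc7a11, and the glutamine carrier Slc1a5 were called in none of the 9 comparisons.

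**Figure D3:**
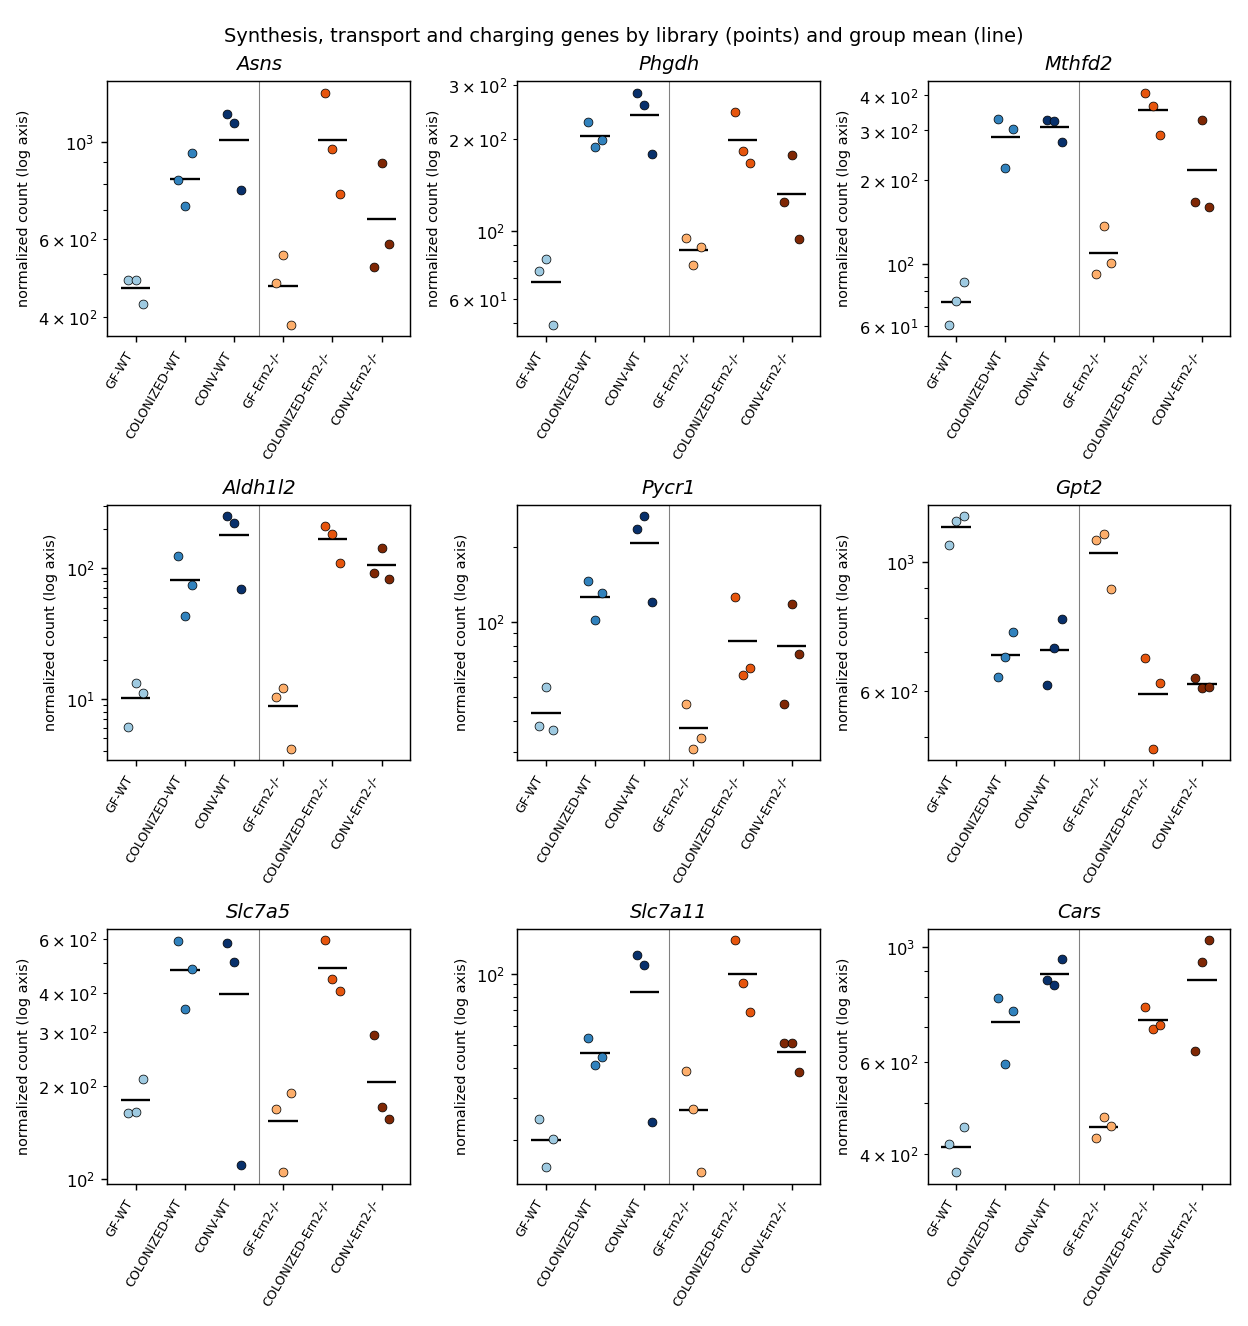
Normalized counts (log axis) of 9 genes of synthesis, transport and tRNA charging in each library (points, n = 3 per group) with the group mean (line). Aldh1l2 is higher and Gpt2 lower in all 12 libraries with microbes than in the 6 GF libraries, and CONV-WT replicate 3 lies in or below the GF-WT range for Slc7a5 and Slc7a11.

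The 12 genes of tRNA charging and export had smaller median log2 fold changes than the synthesis genes. Against GF, 8 were higher in COLONIZED-WT, 4 in CONV-WT, and 1 each in the comparisons of libraries labelled Ern2-/-. Their medians were 0.48, 0.53, 0.46 (COLONIZED-Ern2-/-) and 0.07 (CONV-Ern2-/-). The shares of all genes called higher were 9.13%, 5.56%, 3.62% (COLONIZED-Ern2-/-) and 1.58%, and 1 call of 12 says little about the role. Cars, which charges cysteine tRNA, had 417.1, 368.5 and 449.8 in GF-WT, 861.9, 845.5 and 945.9 in CONV-WT, 798.6, 595.0 and 752.5 in COLONIZED-WT, 428.8, 471.3 and 453.4 in GF-Ern2-/-, 765.4, 696.0 and 708.1 in COLONIZED-Ern2-/-, and 629.7, 935.4 and 1029 in CONV-Ern2-/-. No library with microbes overlapped a GF library. Cars rose by 1.09 ± 0.16 in CONV-WT (adjusted p = 4.34e-09), 0.81 ± 0.17 in COLONIZED-WT (adjusted p = 5.3e-05), 0.68 ± 0.17 in COLONIZED-Ern2-/- (adjusted p = 0.00133; 0.0217 without its replicate 1) and 0.93 ± 0.26 in CONV-Ern2-/- (adjusted p = 0.00843; 0.116 without its replicate 3). The synthetases Nars and Tars and the tRNA exporter Xpot rose in both WT comparisons. The CONV-WT values were 0.63 ± 0.12, 0.56 ± 0.13 and 0.69 ± 0.18, and the COLONIZED-WT values 0.54 ± 0.12, 0.42 ± 0.12 and 0.55 ± 0.14. Mars (0.81 ± 0.14), Aars (0.55 ± 0.15), Wars (0.49 ± 0.13) and Eprs (0.48 ± 0.15) rose in COLONIZED-WT and were called in no other comparison with GF. Without CONV-WT replicate 3 they were called in CONV-WT too, at 0.80 ± 0.15, 0.67 ± 0.18, 0.67 ± 0.14 and 0.63 ± 0.19. Gars, Sars, Yars and Iars were called in none of the 9 comparisons.

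Calls that did not depend on 1 library were counted in each comparison. In COLONIZED-WT against GF-WT 14 of the 24 calls were made in all 6 fits that each left out 1 library (Cebpb, Asns, Psat1, Phgdh, Shmt2, Mthfd2, Aldh1l2, Aldh18a1, Pycr1, Gpt2, Slc7a5, Nars, Mars and Cars). In CONV-WT against GF-WT 7 of 14 were (Asns, Psat1, Phgdh, Mthfd2, Aldh1l2, Pycr1 and Cars). In COLONIZED-Ern2-/- against GF-Ern2-/- 6 of 15 were (Chac1, Mthfd2, Aldh1l2, Aldh18a1, Slc7a1 and Slc7a5), and in CONV-Ern2-/- against GF-Ern2-/- 1 of 5 was (Aldh1l2). Each of the remaining calls was lost in at least 1 such fit, with adjusted p values of up to 0.0997, 0.0725, 0.103 and 0.12 in CONV-WT, COLONIZED-WT, COLONIZED-Ern2-/- and CONV-Ern2-/-. Without CONV-WT replicate 3, 24 genes were called in CONV-WT against GF-WT, 22 higher and 2 lower, including all 14 called with it, beside 20.3% of all genes. Without the 3 libraries with Ern2 in or above the WT range, the counts were 5 in COLONIZED-Ern2-/- against GF-Ern2-/- (Chac1, Stc2, Aldh1l2, Gpt2 and Slc7a5) beside 10.2% of all genes, and 1 in CONV-Ern2-/- against GF-Ern2-/- (Aldh1l2, 3.12 ± 0.73) beside 3.18%.

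**Figure D4:**
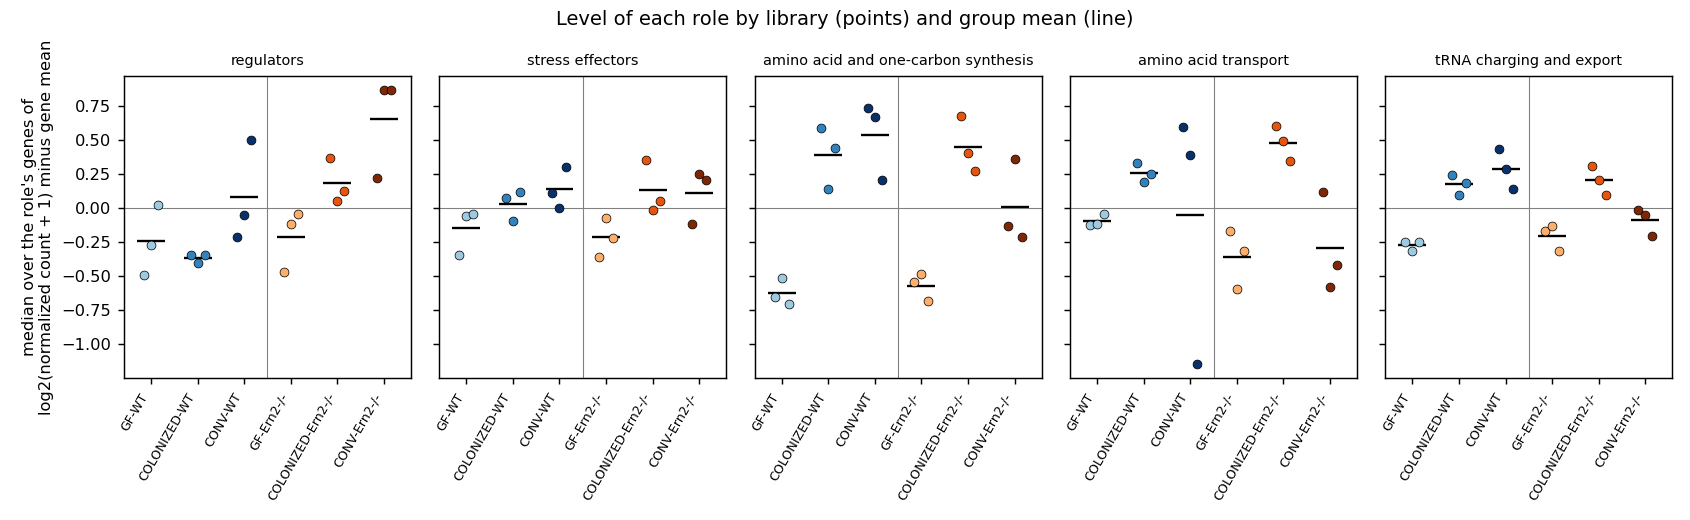
Median over the genes of each role of log2(normalized count + 1) minus the gene's mean over 18 libraries, for each library (points) with the group mean (line, n = 3). The synthesis role is at -0.70 to -0.49 in the 6 GF libraries and at 0.14 to 0.73 in the COLONIZED and CONV-WT libraries, while CONV-Ern2-/- spans -0.21 to 0.36.

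The next comparison asks whether levels differ between the genotype labels within a microbial state. In COLONIZED mice 3 genes were called, all higher in the libraries labelled Ern2-/-, beside 1.36% of 12181 genes tested (0.517% higher), and the median log2 difference was 0.06 over the 43 and -0.00 over all genes. Trib3 was 4.65 ± 0.61 higher (25.1-fold, adjusted p = 3.38e-11), on COLONIZED-WT libraries with 2 to 6 reads each. Chac1 was 2.81 ± 0.35 higher (6.99-fold, adjusted p = 3.58e-12). Atf5, a further bZIP factor of this response, was 0.69 ± 0.15 higher (adjusted p = 0.00109; 0.0283 without COLONIZED-WT replicate 2), with 433.6, 416.9 and 408.2 against 276.7, 221.8 and 279.4. In none of the 3 did the groups overlap, and Trib3 and Chac1 were called in all 6 fits that left out 1 library. With edgeR, which called 0.00786% of all genes, the adjusted p was 0.0544 for Trib3, 0.061 for Chac1 and 0.109 for Atf5. Without COLONIZED-Ern2-/- replicate 1, whose Ern2 count lay in the WT range, Trib3 was 4.01 ± 0.64, Chac1 2.39 ± 0.34 and Atf5 0.67 ± 0.18 higher and still called, and Nupr1 (-0.78 ± 0.16) and Pycr1 (adjusted p = 0.00864) were lower, beside 5.12% of all genes. Of 5 goblet markers all had negative values (median -0.82, 1 called lower), with sums of 13600 to 16500 CPM in COLONIZED-WT and 6180 to 12200 in COLONIZED-Ern2-/-, and of 7 immediate early genes none was called and 4 had an unadjusted p under 0.05, 5 of the 7 with positive values. The part of these lists in the results was not tested. The differences in Atf4 (-0.01 ± 0.11, adjusted p = 0.967), Ddit3 (0.73 ± 0.20, adjusted p = 0.017) and Asns (0.29 ± 0.20, adjusted p = 0.416) did not pass the threshold.

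In CONV mice no gene was called by DESeq2, beside 2.89% of all genes, and none by edgeR. At an unadjusted p under 0.05 there were 12 genes by DESeq2 and 10 by edgeR, beside 16.9% and 15.4% of all genes. The log2 differences were -0.20 ± 0.19 for Atf4 (adjusted p = 0.67), 0.50 ± 0.45 for Ddit3 (adjusted p = 0.653), 0.56 ± 0.52 for Chac1 (adjusted p = 0.659), 1.75 ± 0.68 for Trib3 (adjusted p = 0.117) and -0.61 ± 0.31 for Asns (adjusted p = 0.289). This count rested on CONV-WT replicate 3, which was singled out after seeing the data. Its goblet markers summed to 2640 CPM, within the 2020 to 2890 CPM of CONV-Ern2-/-. Without CONV-WT replicate 3, 11 genes were called beside 12.9% of all genes: Atf3 (2.98 ± 0.45), Atf5 (1.20 ± 0.35), Sesn2 (1.16 ± 0.29) and Cebpg (0.73 ± 0.22) were higher in CONV-Ern2-/-, and Pycr1 (-1.68 ± 0.42), Slc7a5 (-1.37 ± 0.34), Slc7a11 (-1.26 ± 0.38), Aldh1l2 (-1.16 ± 0.34), Aldh18a1 (-1.08 ± 0.25), Wars (-0.64 ± 0.20) and Tars (-0.59 ± 0.18) were lower. In that fit Atf4 was at -0.17 ± 0.20 (adjusted p = 0.629). With all libraries, 4 of 5 goblet markers were called lower in CONV-Ern2-/-. All 5 proliferation markers had negative values (median -0.66, 4 at an unadjusted p under 0.05) and 6 of 7 immediate early genes positive ones (median 0.71, 3 at an unadjusted p under 0.05), none of them called. The part of these lists in the differences was not tested.

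In GF mice no gene was called by either tool, beside 0.0349% of all genes with DESeq2, and 1 gene had an unadjusted p under 0.05 by each, beside 1.48% of all genes with DESeq2 and 1.54% with edgeR. The differences were -0.11 ± 0.23 for Atf4, 0.18 ± 0.35 for Ddit3, 0.30 ± 0.99 for Chac1, 1.12 ± 0.98 for Trib3 and 0.02 ± 0.22 for Asns, each with an adjusted p of 1. With GF-Ern2-/- replicate 2 as the only library of its group, Nupr1 (-1.13 ± 0.32) and Slc1a5 (-0.82 ± 0.22) were lower than in GF-WT, beside 4.57% of all genes; that library is then assumed to vary like the others.

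Whether the genotype difference itself depended on microbial state was tested as an interaction over 12 libraries, the log2 difference between labels in one state minus that in the other. DESeq2 and edgeR called none of the 43 genes in any of the 3 interactions, beside 0.178% (CONV and GF), 0.028% (COLONIZED and GF) and 0.295% (CONV and COLONIZED) of all genes with DESeq2. At an unadjusted p under 0.05 there were 8, 5 and 13 genes by DESeq2, beside 8.72%, 5.76% and 14.9% of all genes, and 8, 4 and 12 by edgeR, beside 7.42%, 7.26% and 12.8%. For COLONIZED minus GF the interaction was 3.54 ± 1.14 for Trib3 and 2.52 ± 0.91 for Chac1, each with an adjusted p of 0.844. For neither gene is the change with colonization shown to differ between the labels. For CONV minus COLONIZED it was -2.24 ± 0.65 for Chac1 (adjusted p = 0.0441) and -2.90 ± 0.93 for Trib3 (adjusted p = 0.0784). Without CONV-WT replicate 3, 7 genes were called in the latter (Sesn2 1.24 ± 0.31; Stc2 -1.49 ± 0.37; Aldh1l2 -2.21 ± 0.56; Aldh18a1 -0.94 ± 0.26; Slc7a5 -1.38 ± 0.40; Slc7a11 -2.36 ± 0.45; Tars -0.62 ± 0.18) beside 9.4% of all genes, and 3 for CONV minus GF (Atf3 3.01 ± 0.80; Sesn2 1.33 ± 0.33; Aldh18a1 -1.13 ± 0.28) beside 2.24%.

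**Figure D5:**
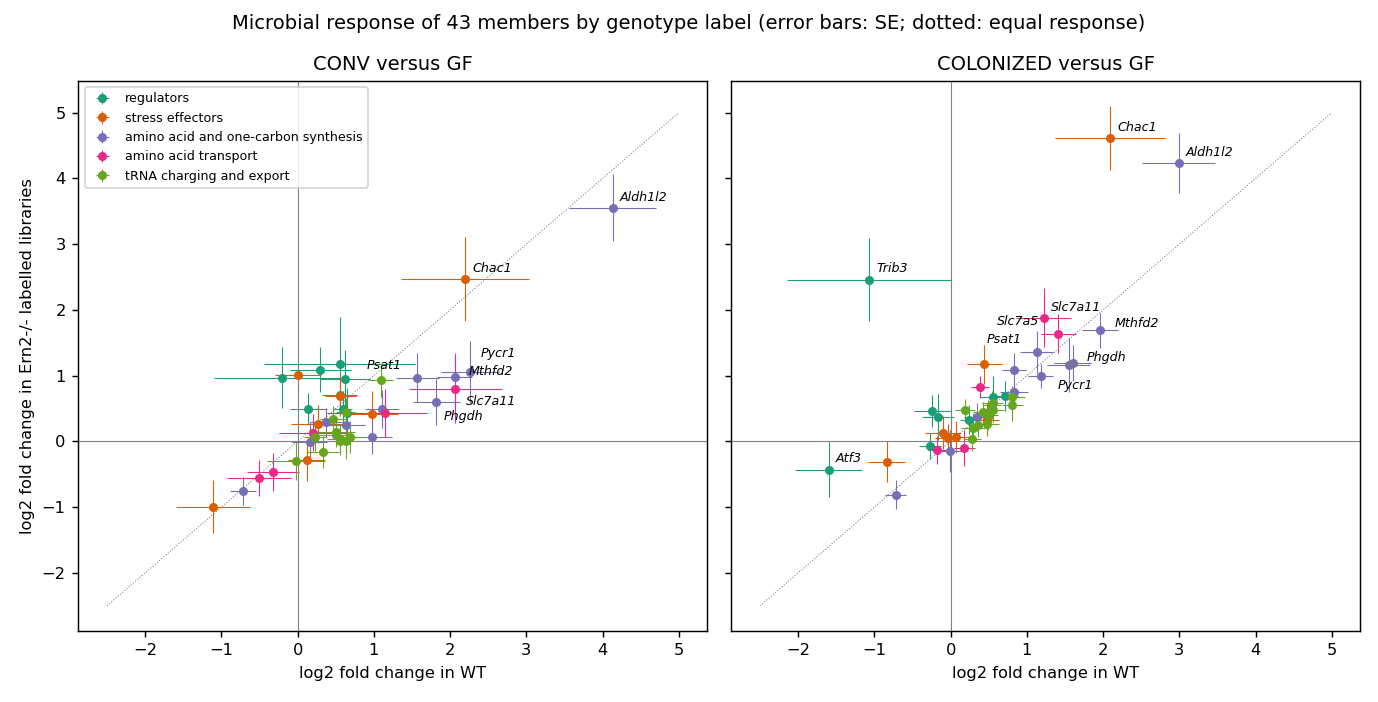
Log2 fold change over GF of each of the 43 genes in WT (x axis) and in libraries labelled Ern2-/- (y axis), with SE bars, for CONV (left) and COLONIZED (right); the dotted line marks equal responses. Aldh1l2 is far along both axes in both panels, and Chac1 and Trib3 lie above the line in the COLONIZED panel, where the interaction passed for neither.

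The libraries with microbes were also compared with each other. CONV-WT and COLONIZED-WT differed in none of the 43 genes by DESeq2, beside 0.117% of all genes, and in none of the 42 tested by edgeR. At an unadjusted p under 0.05 there were 5 genes by DESeq2 and 2 by edgeR, beside 8.89% and 7.11% of all genes. The difference for Atf3 was 1.41 (adjusted p = 0.637) and -0.44 without CONV-WT replicate 3. The differences for Ddit3 (0.81 ± 0.34, adjusted p = 0.424), Trib3 (1.61 ± 0.79, adjusted p = 0.531), Chac1 (0.11 ± 0.47, adjusted p = 0.975) and Asns (0.29 ± 0.22, adjusted p = 0.768) did not pass. Without CONV-WT replicate 3, Aldh1l2 (1.52 ± 0.39), Slc7a11 (1.29 ± 0.29) and Pycr1 (0.98 ± 0.23) were higher in CONV-WT, beside 1.56% of all genes. Between CONV-Ern2-/- and COLONIZED-Ern2-/- 5 genes were called beside 8.37% of all genes, with Atf3 and Sesn2 higher and Chac1, Aldh18a1 and Slc7a5 lower in CONV-Ern2-/-. In the same comparison 3 of 7 immediate early genes, 2 of 6 epithelial markers, 1 of 6 mesenchymal markers (median log2 fold change 3.29) and the 1 endothelial marker tested were called higher. Called lower were 3 of 5 goblet markers, 2 of 5 proliferation markers, 8 of 16 genes of an ER chaperone list, the 1 acinar marker tested and 2 of 15 genes for eIF2 and its regulators. The part of these lists in the results was not tested. The log2 differences there were 0.18 ± 0.18 for Atf4 (adjusted p = 0.52), 0.58 ± 0.34 for Ddit3 (adjusted p = 0.242), -1.30 ± 0.55 for Trib3 (adjusted p = 0.0831) and -0.60 ± 0.28 for Asns (adjusted p = 0.126).

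Other genes around the pathway were read from lists of their own. Upstream of ATF4, 15 genes for eIF2, its exchange factor, its kinases and their regulators held 4 calls in COLONIZED-WT against GF-WT (Eif2s1 0.45 ± 0.13, Eif2b2 0.47 ± 0.13 and Dnajc3 0.41 ± 0.13 higher, Eif2s2 at -0.52 ± 0.14), 2 in CONV-WT and 2 in COLONIZED-Ern2-/-, beside 17.9%, 10.7% and 7.22% of all genes, so these counts say little about the list. The median log2 fold change of this list in COLONIZED-WT was 0.11. Of 10 further ATF4 or CHOP targets 8 were tested in COLONIZED-WT against GF-WT. Cbs, which makes cystathionine, rose by 1.10 ± 0.21, and Gdf15 (-1.09 ± 0.33) and Sqstm1 (-0.57 ± 0.18) were lower. The remaining cytosolic synthetases held 3 calls of 9, all higher, with Vars at 0.80 ± 0.16, and the mitochondrial synthetases 6 of 17, all higher, with Tars2 at 0.64 ± 0.18, beside 9.13% of all genes higher in that comparison. In CONV-WT against GF-WT neither synthetase list held a call. In COLONIZED-Ern2-/- against GF-Ern2-/- no gene of the 2 synthetase lists or of the further targets was called, beside 7.22% of all genes. In CONV-Ern2-/- against GF-Ern2-/- these 3 lists held 1 call, of a mitochondrial synthetase, beside 4.36%.

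The ER chaperone list of the XBP1 and ATF6 arms, which also holds Xbp1 itself and ER degradation genes, moved in several of the same comparisons. Of its 16 genes 12 were higher in COLONIZED-WT than in GF-WT (median log2 fold change 0.95) and 9 in COLONIZED-Ern2-/- than in GF-Ern2-/- (median 0.95), beside 9.13% and 3.62% of all genes, with the chaperone Hspa5 up by 1.35 ± 0.18 and 1.61 ± 0.27. In CONV-WT against GF-WT, where 13 members were higher, none of the 16 was called (median 0.64, 5 at an unadjusted p under 0.05 by DESeq2). The 16 summed to 6540, 5760 and 2110 CPM in CONV-WT replicates 1 to 3 and to 2640 to 3530 in GF-WT. The part of CONV-WT replicate 3 in this absence of calls was not tested. In COLONIZED-Ern2-/- against COLONIZED-WT mice, where Chac1 and Trib3 were higher, 5 of the 16 were higher beside 0.517% of all genes, with Derl3, an ER degradation factor, at 3.28 ± 0.31 and Hspa5 at 0.80 ± 0.19, while Xbp1 was at -0.05 ± 0.15 (adjusted p = 0.89). The summed level of the 16 was 4800 to 6100 CPM in COLONIZED-WT and 6600 to 8980 in COLONIZED-Ern2-/-. In CONV-Ern2-/- against CONV-WT mice 1 of the 16 was called, higher, beside 2.89% of all genes, and Derl3 had group means of 138 and 18.4. Against GF-Ern2-/-, 2 of the 16 were higher in CONV-Ern2-/-, beside 1.58% of all genes.

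Per kilobase of exon (GENCODE, GRCm38), normalized counts differed widely among the 43 genes. Atf4 was highest, with a median library at 1140, followed by Gars (1040), Slc1a5 (1010) and Nupr1 (994). The genes with the widest responses were among the lowest: Slc7a11 (3.07), Trib3 (5.86), Aldh1l2 (10.5), Pycr1 (17.7) and Chac1 (23.6). By group mean, 14 genes were highest in CONV-WT, 12 in COLONIZED-Ern2-/-, 8 in CONV-Ern2-/-, 5 in COLONIZED-WT and 2 in each GF group, while 19 were lowest in GF-WT and 11 in GF-Ern2-/-. Of the 43 genes 30 were called in at least 1 of the 9 comparisons, 11 in 3 or more, and 13 in none, beside 23.3% of 17208 genes called in at least 1 and 5.03% in 3 or more.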

How the data were processed

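Colon crypts were released with EDTA, RNA libraries were made with a stranded mRNA kit and sequenced as single-end reads of 75 cycles, and the authors aligned them with STAR (genome build mm10 per the labels) and deposited raw gene counts. The strand setting of the counting, the aligner version and the annotation are not given in the sources used here. Each of the 9 pair comparisons was fitted on its own 6 libraries and each of the 3 interactions on 12 with DESeq2 1.42.0 (R 4.3.3), keeping its standard settings (median-ratio size factors, filtering by mean count, Cook's cutoff) without shrinkage. The threshold was the study's own, an adjusted p (Benjamini-Hochberg, over all genes tested) under 0.01. Normalized counts per library came from 1 fit of all 18 libraries. Alternatives were edgeR 4.0.16 (quasi-likelihood), TMM factors, a filter at 10 counts in 3 libraries, 1 fit of all 18 libraries, a replicate block, the library total or a Y-linked pattern (over 5 CPM) as covariate, leaving out each library, and leaving out the 3 libraries with Ern2 in or above the WT range. This last one was chosen after seeing the data. CONV-WT replicate 3 was likewise singled out for values by gene after it was seen to stand apart.

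The members and lists were chosen with earlier results of these data known. Named were Atf4, Ddit3, Chac1, Trib3 and Asns in every comparison, every member called there, and up to 4 called genes of other lists. Values per library were given for those 5, for members called in 3 or more comparisons and, beyond this rule, for Atf5 and Sesn2. Members outside this rule were named after their values were seen, to account for all 43. Promoter windows came from RefSeq (GRCm38.p6), exon lengths from GENCODE (GRCm38, the build of mm10). The fits were tested on simulated data. The sample labels tell the replicates of a group, which are different mice, apart only by a number. Within groups the libraries also differed in total, in Ern2 count and, in some groups, in the Y-linked pattern. The p-values measure the spread between the 3 mice of a group. Library totals, 5865619 to 23154481 counts, set the counting error and do not measure that spread. All CONV-WT totals lay below those of GF-WT and COLONIZED-WT, so depth and state cannot be told apart there.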

Additional observations from a re-analysis of the deposited data

How the results depend on the processing

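The number of members called moved by over 1.5 times as follows. With edgeR it was 0 in COLONIZED Ern2-/- against WT, 0 in CONV-WT, 11 in COLONIZED-WT, 0 in CONV-Ern2-/- and 1 in COLONIZED-Ern2-/- against GF, and 0 in CONV-Ern2-/- against COLONIZED-Ern2-/-. In 1 fit of all 18 libraries it was 3 in CONV Ern2-/- against WT and 3 in CONV-Ern2-/- against COLONIZED-Ern2-/-, beside 5.01% and 3.24% of all genes. With the Y-linked pattern it was 7 in CONV-WT, 3 in COLONIZED-WT and 2 in CONV-Ern2-/- against GF, 3 in CONV-Ern2-/- against COLONIZED-Ern2-/-, and 2 (Stc2, Tars) in the CONV and COLONIZED interaction, beside 6.7%, 1.88%, 4.06%, 4.83% and 0.382% of all genes. The count in COLONIZED-WT rests on replicate 2, the only library of that group without the pattern. With the library total as covariate it was 1 in CONV-Ern2-/- against GF, 5 in CONV-WT against COLONIZED-WT and 1 in CONV-Ern2-/- against COLONIZED-Ern2-/-, beside 0.763%, 6.25% and 2.05%. Without the 3 libraries with Ern2 in or above the WT range it was 5 in COLONIZED Ern2-/- against WT, beside 5.12% of all genes. In CONV-Ern2-/- against COLONIZED-Ern2-/- it was 2, beside 3.24%. The counts for comparisons with GF-Ern2-/-, which then held 1 library, are left out. Leaving out each library gave 0 to 11, 0 to 0 and 2 to 5 for Ern2-/- against WT in CONV, GF and COLONIZED mice, 7 to 24 and 14 to 21 for CONV-WT and COLONIZED-WT against GF, 1 to 7 and 7 to 19 for CONV-Ern2-/- and COLONIZED-Ern2-/- against GF, 0 to 3 and 2 to 15 for CONV against COLONIZED in WT and Ern2-/-, and 0 to 3, 0 to 0 and 0 to 7 in the interactions. Without CONV-WT replicate 3, the counts of 11 (CONV Ern2-/- against WT), 24 (CONV-WT against GF), 3 (CONV-WT against COLONIZED-WT), and 3 and 7 (CONV and GF, and CONV and COLONIZED interactions) stood beside 12.9%, 20.3%, 1.56%, 2.24% and 9.4% of all genes. The ranges over other fits are given without such shares and describe the counts alone. The cause of the moved counts was not tested. TMM factors and the filter changed no count by that much.

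In 0 of 9 comparisons did all 3 same-numbered pairs correlate over 0.1 in their deviations, although single pairs reached 0.63, so the numbers were not taken as pairing. With the number as a replicate block, 9 members were called in CONV-WT and 3 in CONV-Ern2-/- against GF, beside 9.22% and 4.13% of all genes. In COLONIZED Ern2-/- against WT the block gave 2 calls in place of 3, beside 1.58% of all genes.

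Of the 43 genes over 5 comparisons, 26 of 215 log2 fold changes changed sign without CONV-WT replicate 3, and over 8 comparisons 43 of 344 without the 3 libraries, none of them called with or without these libraries. For Atf4, Ddit3, Chac1, Trib3 and Asns, the values that changed sign under any alternative were all uncalled. With the library total they were Ddit3 -0.07 (CONV Ern2-/- against WT), -0.35 (GF), -0.16 (CONV-WT against GF), -0.20 (CONV-Ern2-/- against GF) and -0.31 (CONV-Ern2-/- against COLONIZED-Ern2-/-), Atf4 0.00 (COLONIZED Ern2-/- against WT) and -0.05 (CONV-Ern2-/- against COLONIZED-Ern2-/-), Trib3 -0.07 (CONV-WT) and 0.31 (COLONIZED-WT), and Chac1 -0.53 (CONV-WT against COLONIZED-WT). With the Y-linked pattern they were Atf4 0.19, Chac1 -0.51 and Asns -0.27 in GF Ern2-/- against WT, and Atf4 -0.01 in the COLONIZED and GF interaction. Without the 3 libraries they were Ddit3 -0.44 in GF, Atf4 0.35, Chac1 -0.60 and Trib3 -0.30 in the CONV and GF interaction, and Asns -0.19 in the COLONIZED and GF interaction. Leaving out 1 library gave, in GF Ern2-/- against WT, -0.48 to 1.90 for Chac1, -0.12 to 0.15 for Asns, -0.28 to 0.05 for Atf4 and -0.27 to 0.40 for Ddit3. It gave -0.04 to 0.03 for Atf4 in COLONIZED Ern2-/- against WT, -1.50 to 0.57 for Trib3 in COLONIZED-WT against GF-WT and -0.21 to 0.37 for Chac1 in CONV-WT against COLONIZED-WT. In the interactions it gave -1.32 to 1.02 for Chac1, -0.99 to 1.48 for Trib3 and -0.26 to 0.09 for Atf4 (CONV and GF), -0.06 to 0.27 for Atf4 (COLONIZED and GF) and -0.46 to 0.14 for Ddit3 (CONV and COLONIZED).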
